A study of Mus musculus with 16 samples.

Results

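The serum amyloid A genes Saa1, Saa2, Saa3 and Saa4 were followed across sorted EPCAM+ thymic epithelial cells of the mouse. So were the regenerating (Reg) genes Reg1, Reg2, Reg3a, Reg3b, Reg3g and Reg4. These 10 genes, of 43432 in the count files, were selected by symbol, as 2 families of acute-phase and antimicrobial genes of liver and gut. They were chosen from a list drawn up with their values in these same libraries known, so their levels and differences are a description and carry no p-value. Each of the 10 was found in the files under its Ensembl identifier, and each passed the filter on low counts, Reg2 and Reg4 through their reads in MHCIIhi cells.

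Medullary thymic epithelium displays proteins of other organs to developing T cells, in part under the transcriptional regulator Aire. Some medullary epithelial cells take on programmes of gut, liver or skin epithelium. Serum amyloid A proteins are small apolipoproteins of high-density lipoprotein that liver and epithelia secrete in large amounts during inflammation, downstream of interleukin-1, interleukin-6, tumour necrosis factor and, in the gut, interleukin-22, through NF-kB, STAT3 and C/EBP factors. The REG proteins are small secreted C-type lectins made by the pancreas and the intestinal epithelium, and of these REG3B and REG3G are antibacterial proteins of the small intestine.

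Poly-A RNA was sequenced from thymi of 5 to 6 week old mice of mixed sex of the strain C57BL6.Aire-CreERT2.Ai14, all of which had received tamoxifen (2 mg), taken 7 days later. In this strain tamoxifen releases a recombinase made from Aire regulatory sequence, which switches on a red fluorescent reporter (RFP) that is kept afterwards, so RFP records that a cell or its precursor made Aire at about the time of tamoxifen. The sort was for live CD45- EPCAM+ cells and gave RFP+ MHCIIlo, RFP- MHCIIlo, RFP+ MHCIIhi and RFP- MHCIIhi cells, with 4 libraries of each population and 16 in all. RFP+ MHCIIlo cells are those that carry the Aire-lineage mark and have low surface MHC class II, and RFP- MHCIIlo cells have low MHC class II without the mark. The labels give 12 mice and do not say whether that number is per library, nor whether libraries of different populations came from the same mice, so the errors and p-values below measure the spread between these libraries, which may be technical. RFP+ MHCIIlo libraries were made from 19400 to 20500 sorted cells and the other 12 from 80500 to 164000. Reads counted to genes came to 7.93 M to 19.46 M per library, with a median of 13.28 M. Levels are given as CPM, read counts per 1000000 counted reads, with library sizes scaled by TMM. Aire averaged 50.8 ± 25.4 CPM in RFP+ MHCIIlo cells, 37.9 ± 23.5 CPM in RFP- MHCIIlo cells, 587 ± 32.5 CPM in RFP+ MHCIIhi cells and 979 ± 56.1 CPM in RFP- MHCIIhi cells (SD, n = 4 each), so the RFP- MHCIIhi population was rich in Aire transcripts without carrying the mark. In such bulk libraries, more cells that make a transcript and more transcript per cell cannot be told apart.

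On GRCm38 the genes lie at 3 places. Saa3, Saa4, Saa1 and Saa2 lie in that order within chr7:46711998-46754313, with Saa2 on the plus strand and the other 3 on the minus strand. Reg3b, Reg3a, Reg2, Reg1 and Reg3g lie within chr6:78370657-78468872, and Reg4 lies apart at chr3:98222156-98236748. No other gene counted in the files overlapped any of the 10. The coding sequences of Saa1 and Saa2 were 95.1% identical and their transcripts shared 101 stretches of 40 bases, 17.7% of those in Saa1, so a small share of reads could have been split between them in the authors' counting. Saa1 and Saa3 shared 19 such stretches and Saa2 and Saa3 shared 2, and no other pair of these Saa genes and no pair of these Reg genes shared any.

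The promoter windows of 5 members are shown because they belong to the most abundant transcripts and to the near-identical pair Saa1 and Saa2, whose levels parted between populations. Each runs from 250 bases before to 50 bases after the RefSeq start (assembly GRCm38.p6) and is written 5′ to 3′ on the gene's strand. Capitals mark matches on either strand to the box TATAAA of core promoters, to GGG and CC with 5 bases between them (an NF-kB pattern), to TTGCNNAA (a C/EBP pattern) or to TTCNNNGAA (a STAT pattern). The Saa1 window is chr7:46742931-46743230 on the minus strand, that of Saa2 is chr7:46751583-46751882 on the plus strand, that of Saa3 is chr7:46715627-46715926 on the minus strand, that of Reg3g is chr6:78468825-78469124 on the minus strand and that of Reg3b is chr6:78370635-78370934 on the plus strand.
Saa1: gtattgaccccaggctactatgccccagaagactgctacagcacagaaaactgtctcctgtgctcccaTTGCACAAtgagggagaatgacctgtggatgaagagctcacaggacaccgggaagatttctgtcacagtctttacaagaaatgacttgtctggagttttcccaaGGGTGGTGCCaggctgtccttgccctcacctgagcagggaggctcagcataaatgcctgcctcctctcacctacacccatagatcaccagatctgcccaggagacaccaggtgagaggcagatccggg
Saa2: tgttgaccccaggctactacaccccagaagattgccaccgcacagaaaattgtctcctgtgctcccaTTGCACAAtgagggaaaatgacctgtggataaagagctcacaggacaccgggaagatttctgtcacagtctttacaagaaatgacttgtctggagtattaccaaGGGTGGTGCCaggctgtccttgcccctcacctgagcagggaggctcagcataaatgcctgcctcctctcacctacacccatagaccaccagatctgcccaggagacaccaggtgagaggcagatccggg
Saa3: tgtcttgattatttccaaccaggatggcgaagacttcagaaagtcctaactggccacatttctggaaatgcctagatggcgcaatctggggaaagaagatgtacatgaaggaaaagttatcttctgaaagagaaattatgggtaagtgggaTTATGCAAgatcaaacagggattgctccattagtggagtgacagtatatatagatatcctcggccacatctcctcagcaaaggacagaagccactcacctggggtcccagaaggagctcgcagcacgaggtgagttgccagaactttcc
Reg3g: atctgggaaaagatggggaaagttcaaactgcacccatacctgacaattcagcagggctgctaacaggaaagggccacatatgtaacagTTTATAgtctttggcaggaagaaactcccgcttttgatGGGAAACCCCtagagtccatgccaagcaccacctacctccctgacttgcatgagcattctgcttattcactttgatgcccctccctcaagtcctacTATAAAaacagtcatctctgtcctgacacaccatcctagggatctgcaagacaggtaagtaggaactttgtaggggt
Reg3b: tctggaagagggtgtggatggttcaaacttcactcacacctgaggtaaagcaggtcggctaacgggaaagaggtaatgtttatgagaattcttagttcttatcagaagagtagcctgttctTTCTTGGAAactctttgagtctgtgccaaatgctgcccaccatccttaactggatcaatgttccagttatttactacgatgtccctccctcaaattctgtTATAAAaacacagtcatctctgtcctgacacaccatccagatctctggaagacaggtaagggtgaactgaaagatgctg

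The Saa1 and Saa2 windows were 95.7% identical and carried the same letters at both of their marked places, a C/EBP match at -182 in Saa1 and -183 in Saa2 and an NF-kB match at -78 in Saa1 and -79 in Saa2, counted from the start as 0. The Saa3 window was 56.7% identical to that of Saa1 and held 1 C/EBP match, at -99. Reg3b and Reg3g were 70.0% identical, and each held a TATA box, at -29 in Reg3b and at -27 in Reg3g. Between them they differed in the other marks: Reg3b had a STAT match at -129, and Reg3g had an NF-kB match at -123 and a second TATAAA match on the other strand at -161. Over the 10 members, 6 windows held the C/EBP pattern (Saa1, Saa2, Saa3, Saa4, Reg2 and Reg3a), against 10.8% of 27025 RefSeq windows of the same length. The NF-kB pattern was in 4 members (Saa1, Saa2, Saa4 and Reg3g) and in 50.4% of all windows, TATAAA was in 4 (Reg1, Reg2, Reg3b and Reg3g) and in 14.2% of all windows, and the STAT pattern was in Reg3b and in 8.47% of all windows. No marked match overlapped another, and the Reg4 window held none of the 4 patterns. A match describes letters in the window and shows no binding.

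The abundant serum amyloid A transcripts of the sorted cells were those of Saa3 and Saa1. Saa3 is an acute-phase amyloid made by many tissues outside the liver, and Saa1 is released into plasma by mouse liver. Saa3 had 345, 354, 379.5 and 389 CPM in the RFP+ MHCIIlo libraries, against 17.3, 19.9, 22.3 and 26.5 CPM in the RFP- MHCIIlo libraries. With the same order of replicates 1 to 4, Saa3 had 617, 605, 694 and 749 CPM in RFP+ MHCIIhi cells, against 70.5, 77.4, 79.9 and 84.4 CPM in RFP- MHCIIhi cells. The 4 populations did not overlap for Saa3, and both RFP+ populations stood above both RFP- populations. The log2 difference of RFP+ against RFP- cells was 4.09 (SE 0.115) in the MHCIIlo gate, a 17.0-fold higher level, and 3.09 (SE 0.106) in the MHCIIhi gate, 8.54-fold higher.

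Saa1 followed the same order of populations. It had 261, 269, 262 and 329 CPM in RFP+ MHCIIlo libraries, against 29.1, 29.4, 33.4 and 31.9 CPM in RFP- MHCIIlo libraries. The MHCIIhi libraries had 374, 418, 439 and 484.5 CPM in RFP+ cells, against 74.3, 82.2, 73.5 and 83.9 CPM in RFP- cells. As for Saa3, no 2 populations overlapped, and the lowest RFP+ library stood above the highest RFP- library. The log2 difference of RFP+ against RFP- cells was 3.18 (SE 0.1) in MHCIIlo cells and 2.45 (SE 0.095) in MHCIIhi cells.

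Saa2, the close copy of Saa1, was ordered differently. Its 4 libraries had 6.48, 8.04, 7.17 and 7.05 CPM in RFP+ MHCIIlo cells, against 1.06, 1.10, 0.853 and 0.946 CPM in RFP- MHCIIlo cells. In MHCIIhi cells it had 28.0, 22.9, 30.1 and 27.6 CPM with the mark, against 11.7, 12.3, 14.4 and 12.9 CPM without it. Unlike Saa1, Saa2 was higher in RFP- MHCIIhi cells than in RFP+ MHCIIlo cells, with no overlap. Its log2 difference of RFP+ against RFP- cells was 2.85 (SE 0.187) in the MHCIIlo gate and 1.08 (SE 0.116) in the MHCIIhi gate. Per kb of transcript, the ratio of Saa1 to Saa2 was 39.1 ± 5.68 in RFP+ MHCIIlo cells, 31.6 ± 5.80 in RFP- MHCIIlo cells, 15.9 ± 2.35 in RFP+ MHCIIhi cells and 6.12 ± 0.711 in RFP- MHCIIhi cells (SD, n = 4 each). The 2 MHCIIlo populations overlapped in this ratio, and each MHCIIhi population lay apart from all the others. The near-identical promoter windows shown above thus belonged to genes whose proportion to each other was not fixed across the populations. What share of the Saa2 counts came from Saa1 transcripts was not tested.

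Saa4, the serum amyloid A that liver makes constitutively, was scarce. RFP+ MHCIIlo libraries had 3.13, 4.02, 2.60 and 2.24 CPM, against 0, 0.0848, 0.682 and 0.430 CPM in RFP- MHCIIlo libraries, the last group resting on 0, 1, 8 and 5 reads. The MHCIIhi libraries had 11.8, 11.1, 12.0 and 14.5 CPM in RFP+ cells, against 10.3, 10.1, 10.3 and 7.24 CPM in RFP- cells. The lowest RFP+ MHCIIhi library stood above the highest RFP- MHCIIhi library. The log2 difference in that gate was 0.38 (SE 0.205) and was not called, except with only the compared libraries in the fit, where it was 0.40. In MHCIIlo cells it was 3.20 (SE 0.413).

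Reg3g, the antibacterial lectin of the small intestine, was by far the most abundant of the 10. It had 2417, 3008, 2811 and 3691 CPM in RFP+ MHCIIlo libraries, against 796, 769.5, 811 and 943 CPM in RFP- MHCIIlo libraries. With 2292, 2375, 2615 and 2454 CPM in RFP+ MHCIIhi cells, against 573, 513, 445 and 601 CPM in RFP- MHCIIhi cells, the mark again separated the libraries. The RFP+ populations overlapped each other, and all 8 of their libraries stood above all 8 RFP- libraries. Its log2 difference of RFP+ against RFP- cells was 1.85 (SE 0.116) in MHCIIlo cells and 2.19 (SE 0.117) in MHCIIhi cells. Reg3g was the only member of the 10 to be lowest in RFP- MHCIIhi cells, where Aire transcripts were highest.

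Reg3b, the other antibacterial REG3 lectin of mouse intestine, had 190.5, 258, 224 and 326.5 CPM in RFP+ MHCIIlo libraries, against 14.8, 35.2, 24.9 and 32.1 CPM in RFP- MHCIIlo libraries. The RFP+ MHCIIhi libraries had 204, 249.6, 238 and 249.7 CPM, against 46.5, 49.6, 33.9 and 54.0 CPM in RFP- MHCIIhi libraries. As for Reg3g, the RFP+ populations overlapped each other and lay above both RFP- populations. The log2 difference of RFP+ against RFP- cells was 3.22 (SE 0.197) in the MHCIIlo gate and 2.35 (SE 0.185) in the MHCIIhi gate. The ratio of Reg3g to Reg3b per kb was 12.2 ± 0.705 in RFP+ MHCIIlo cells, 35.0 ± 13.9 in RFP- MHCIIlo cells, 10.5 ± 0.845 in RFP+ MHCIIhi cells and 11.9 ± 1.24 in RFP- MHCIIhi cells (SD, n = 4 each). RFP- MHCIIlo cells were therefore the population in which Reg3b was scarcest relative to Reg3g, with ratios of 22.2 to 54.7 that did not overlap those of the others.

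Reg3a, the third REG3 lectin, was low, with 1.62, 1.59, 3.12 and 7.21 CPM in RFP+ MHCIIlo libraries, against 0.213, 0.170, 0.0853 and 0.602 CPM in RFP- MHCIIlo libraries. It averaged 7.02 ± 0.636 CPM in RFP+ MHCIIhi cells and 6.70 ± 1.01 CPM in RFP- MHCIIhi cells (SD, n = 4 each). The MHCIIhi populations overlapped, and the log2 difference between them was 0.07 (SE 0.288), against 3.67 (SE 0.524) in the MHCIIlo gate. Reg3d, a further gene of the family, had at most 0.998 CPM in any library.

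Reg1 and Reg2 encode secreted proteins first known from the pancreas. Reg1 had 14.4, 21.6, 23.2 and 27.4 CPM in RFP+ MHCIIlo libraries, against 1.91, 4.33, 3.67 and 6.97 CPM in RFP- MHCIIlo libraries. In the MHCIIhi gate its libraries had 54.9, 56.8, 58.9 and 60.0 CPM with the mark, against 17.9, 22.3, 19.8 and 23.0 CPM without it. RFP+ MHCIIlo and RFP- MHCIIhi cells overlapped for Reg1, and the other neighbours in its order did not. The log2 difference of RFP+ against RFP- cells was 2.34 (SE 0.219) in MHCIIlo cells and 1.48 (SE 0.170) in MHCIIhi cells.

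Reg2 was at 0.324, 0.731, 5.71 and 0.249 CPM in RFP+ MHCIIlo libraries, against 0, 0.0848, 0 and 0.430 CPM in RFP- MHCIIlo libraries. The RFP+ MHCIIlo value rested on replicate 3, which had 55 reads, while the others had 3, 6 and 3, and without it the log2 difference of 3.60 (SE 0.983) became 1.52 and was no longer called. Of the pancreatic acinar markers, the same library had 13.3 CPM of the trypsinogen gene Prss2 and 0.935 CPM of the acinar factor Ptf1a. It had 0.104 CPM of the elastase gene Cela1 and no read of Cpa1, Pnlip or Amy2a5. Prss2, Ptf1a and Cela1 were each higher in another library of that population, reaching 16.5, 2.32 and 1.99 CPM. Among the macrophage markers, the complement genes C1qa, C1qb and C1qc were highest of the population in replicate 3. They had 27, 60 and 57 reads there, against at most 6, 15 and 15 reads in the other 3. Itgax was highest there too, at 3.32 CPM. Adgre1, Csf1r, Mpeg1, Cd68, Lyz2, Itgam, Cd14 and Fcgr3 were each higher in another library of that population, and Cd68 was lowest there, at 17.6 CPM. The part of these markers in the Reg2 value of replicate 3 was not tested. Reg2 averaged 4.35 ± 0.871 CPM in RFP+ MHCIIhi cells and 3.99 ± 1.44 CPM in RFP- MHCIIhi cells (SD, n = 4 each), which overlapped.

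Reg4, a lectin of enteroendocrine and goblet cells, had 9.04, 7.00, 8.89 and 7.51 CPM in RFP+ MHCIIhi libraries, against 12.4, 14.2, 13.6 and 13.2 CPM in RFP- MHCIIhi libraries, a log2 difference of -0.72 (SE 0.271) with no overlap. RFP+ MHCIIlo libraries had 0.108, 1.59, 1.35 and 0.0829 CPM, against 0.213, 0.255, 0.171 and 1.12 CPM in RFP- MHCIIlo libraries. The MHCIIlo populations, with 1 to 13 reads per library, overlapped, and since Reg4 passed the filter on low counts through its MHCIIhi reads, nothing is read from its difference between the gates.

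**Figure D1:**
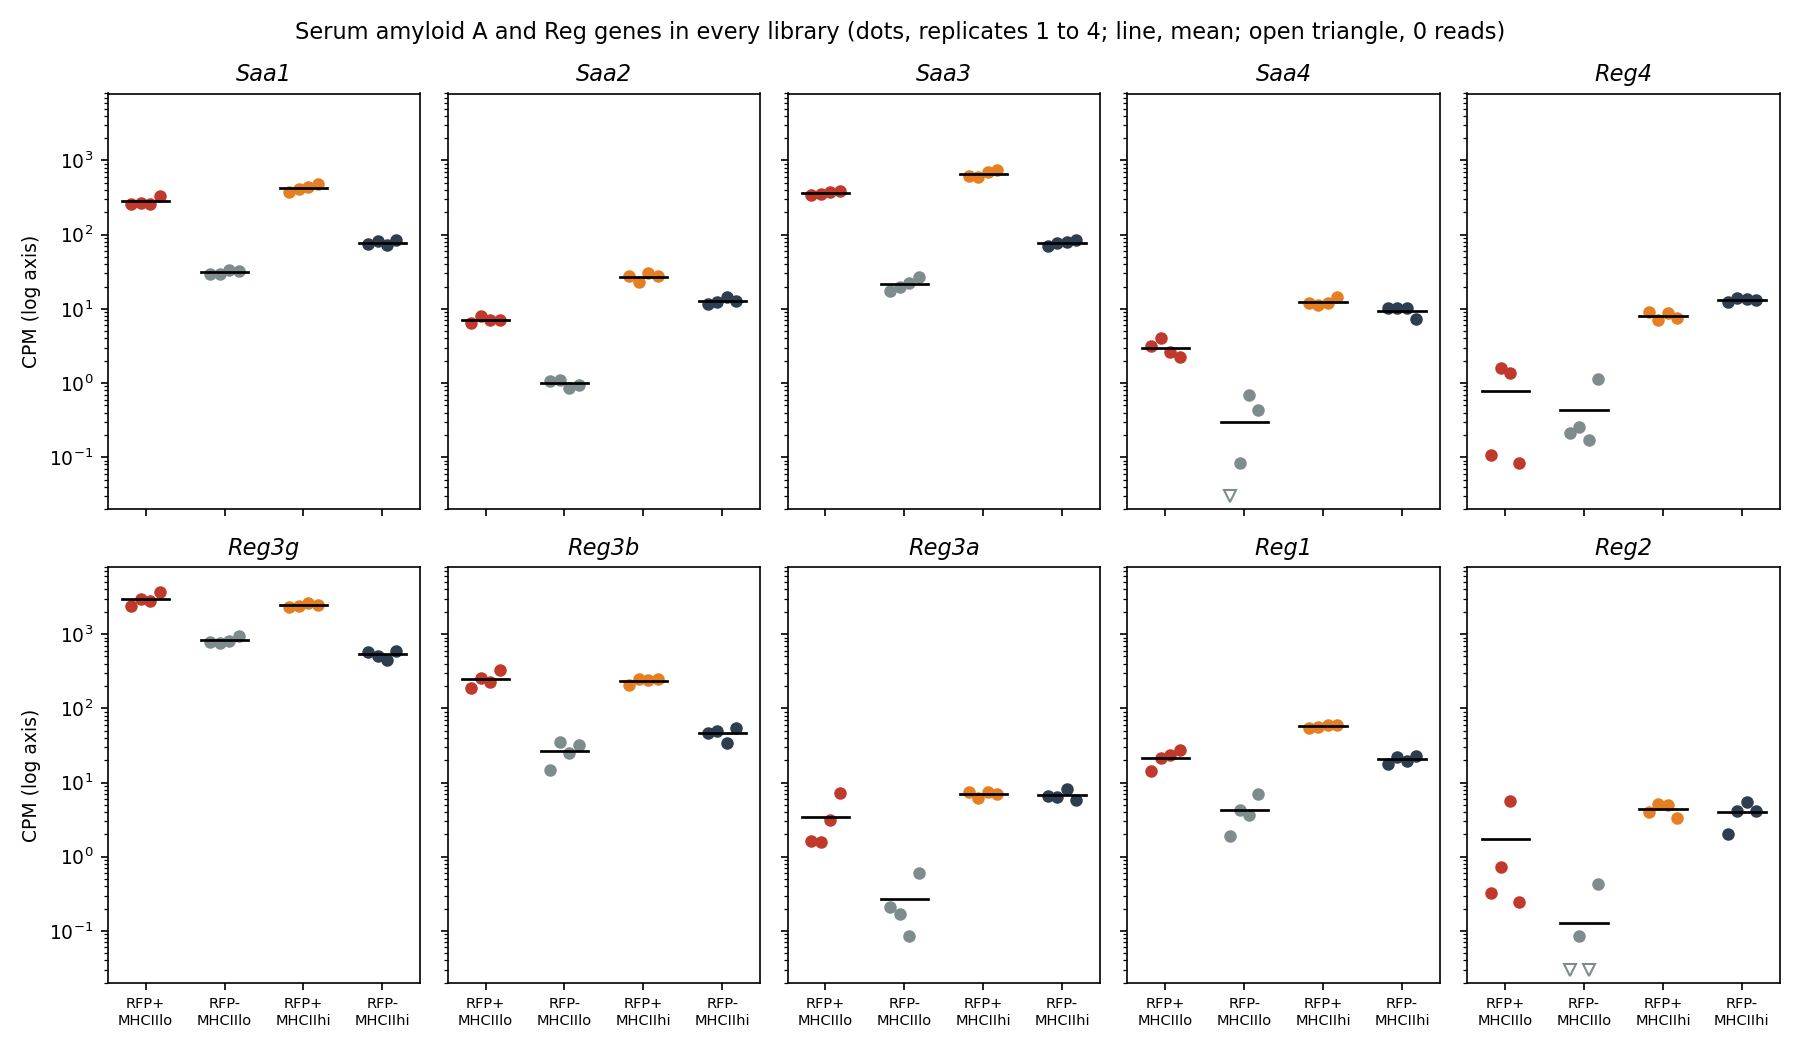
Level of each gene in every library, in CPM on a log axis; dots are replicates 1 to 4 from left to right, the line is the population mean and open triangles are libraries with 0 reads. Reg3g lies highest in every population, and Reg4 alone is highest in RFP- MHCIIhi cells. RFP+ libraries lie above RFP- libraries of the same gate for Saa1, Saa2, Saa3, Saa4, Reg1, Reg3b and Reg3g.

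Ordered by mean level, 7 of the 10 were highest in RFP+ MHCIIhi cells (Saa1, Saa2, Saa3, Saa4, Reg1, Reg2 and Reg3a), Reg3b and Reg3g were highest in RFP+ MHCIIlo cells, and Reg4 in RFP- MHCIIhi cells. RFP- MHCIIlo cells were lowest for 9 of the 10. Of the 30 steps between neighbours in these orders, 20 had library ranges that did not overlap. The same share over all genes was not computed. In the pairwise comparisons below, ranges did not overlap for 39.5% to 65.3% of all genes, so nothing is read from this count. All 3 steps were free of overlap for each of the 4 Saa genes. For Reg2 every step overlapped, so its order is not resolved. The top step overlapped for Reg2, Reg3a, Reg3b and Reg3g.

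The 10 genes together took 0.386% of counted reads in RFP+ MHCIIlo cells, 0.0814% in RFP- MHCIIlo cells, 0.404% in RFP+ MHCIIhi cells and 0.0872% in RFP- MHCIIhi cells (means of 4 libraries). Summed per kb, their level was 4.43 times higher in RFP+ than in RFP- MHCIIlo cells and 5.01 times higher in RFP+ than in RFP- MHCIIhi cells, with no overlap in either gate. Within a label the gates overlapped: the sum was 5360 ± 852 CPM per kb in RFP+ MHCIIlo cells, 1210 ± 116 in RFP- MHCIIlo cells, 5510 ± 358 in RFP+ MHCIIhi cells and 1100 ± 103 in RFP- MHCIIhi cells (SD, n = 4 each). What differed between gates was the make-up. Reg3g made up 72.0% ± 1.51 of the sum in RFP+ MHCIIlo cells, 89.1% ± 1.33 in RFP- MHCIIlo cells, 57.3% ± 1.62 in RFP+ MHCIIhi cells and 62.8% ± 2.95 in RFP- MHCIIhi cells. Saa3 made up 12.5% ± 1.42, 3.19% ± 0.318, 21.8% ± 1.16 and 12.9% ± 1.45 of it in the same order of populations. Saa3 was higher than Saa1 per kb in every population but RFP- MHCIIlo cells, where the ratio was 0.760 ± 0.109, against 1.44 ± 0.118 in RFP+ MHCIIlo cells, 1.71 ± 0.0911 in RFP+ MHCIIhi cells and 1.09 ± 0.0735 in RFP- MHCIIhi cells.

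**Figure D2:**
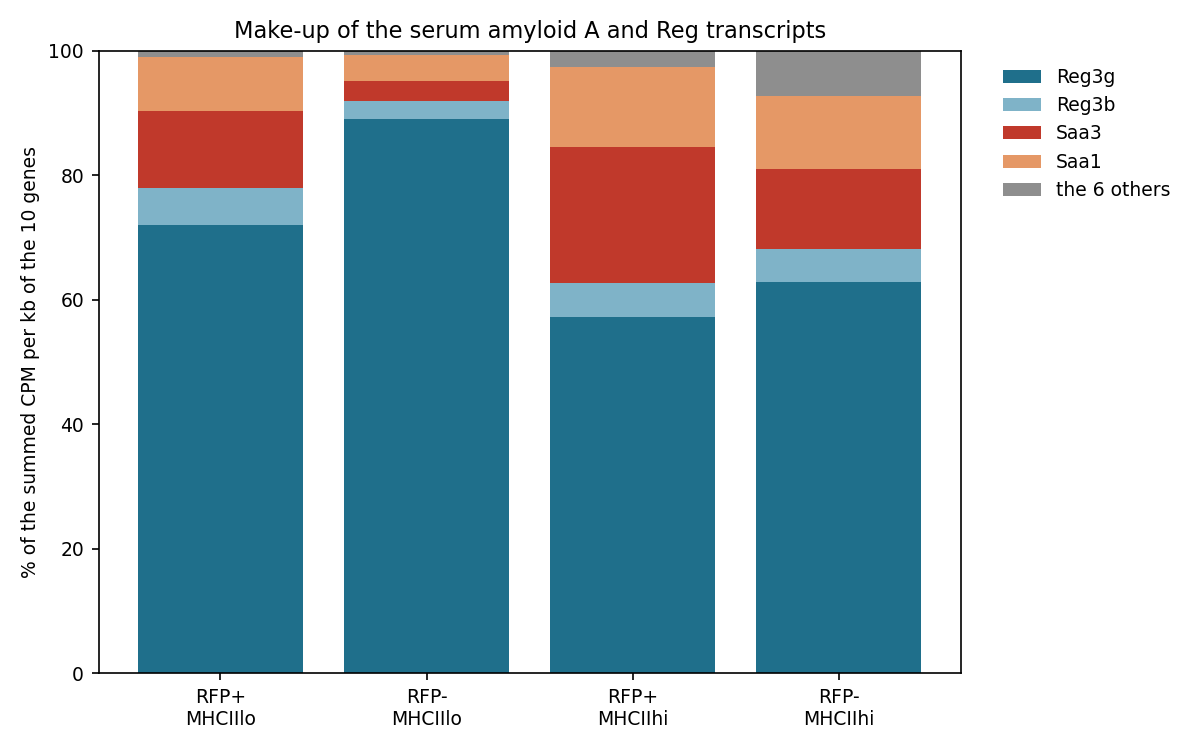
Make-up of the 10 genes' summed CPM per kb of main coding transcript in each population (stacked means of 4 libraries, in percent). Reg3g takes 89.1% in RFP- MHCIIlo cells and 57.3% in RFP+ MHCIIhi cells, where Saa3 reaches 21.8%.

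The comparison of RFP+ with RFP- MHCIIlo cells sets cells that had made Aire and now have low MHC class II beside MHCIIlo cells with no such record. Of the 10 genes, 9 passed an adjusted p of 0.05 as higher in RFP+ MHCIIlo cells and none as lower, while 28.9% of the 19617 genes tested were called higher and 22.7% lower (edgeR, Benjamini-Hochberg). Library ranges did not overlap for 8 of the 10, and for 39.5% of all genes tested. The median log2 difference was 3.19 over the 10 and 0.07 over all genes. Reg4 was the gene not called, at 0.69 (SE 0.647). Since the genes were chosen with these values known, the counts describe them and nothing is read from their distance to the background.

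In RFP+ against RFP- MHCIIhi cells, 6 were called higher (Saa1, Saa2, Saa3, Reg1, Reg3b and Reg3g) and Reg4 was called lower, beside 23.8% of all genes called higher and 21.2% lower. Library ranges did not overlap for 8 of the 10 and for 50.0% of all genes. The median log2 difference was 1.28 over the 10 and -0.02 over all genes. Saa4, Reg2 and Reg3a were not called in this gate. The call on Reg4 was lost with DESeq2, where its log2 difference was -0.74, and on leaving out any one of 7 of the 8 MHCIIhi libraries, where it lay between -0.77 and -0.65.

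**Figure D3:**
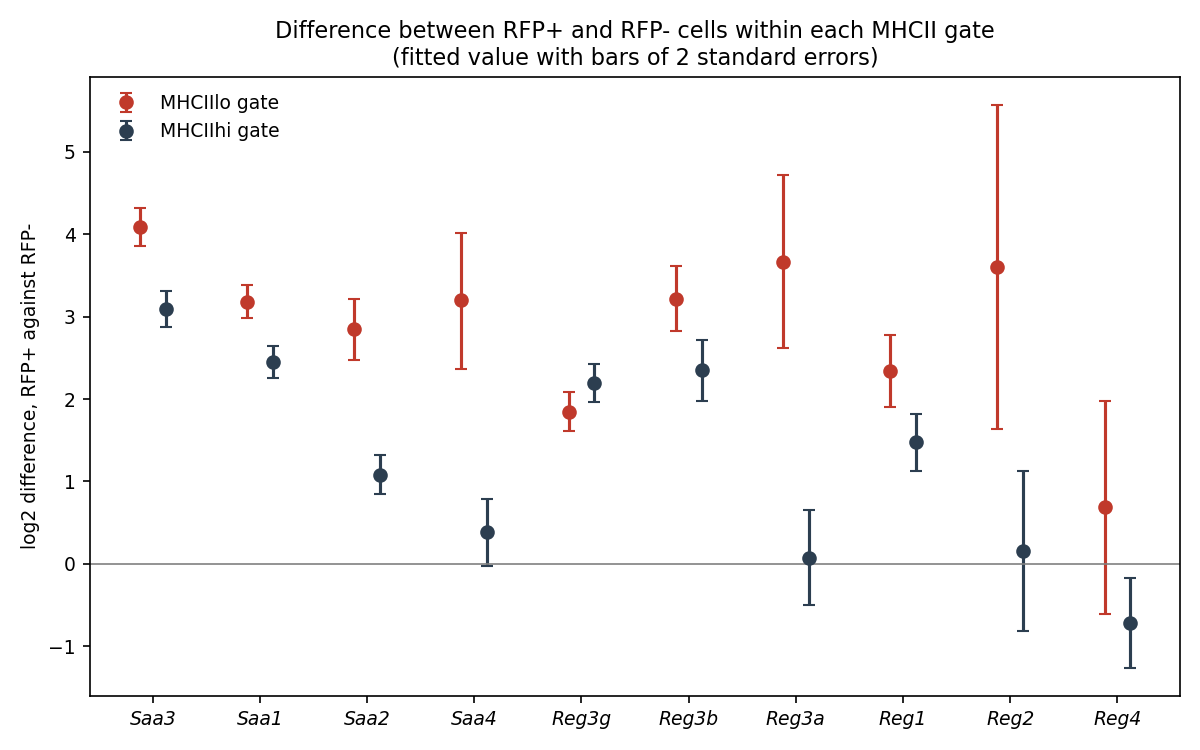
Fitted log2 difference between RFP+ and RFP- cells in the MHCIIlo gate and in the MHCIIhi gate for each gene; bars extend 2 standard errors. Saa3 has the highest fitted value in both gates, and Saa4, Reg2 and Reg3a lie above 3 in the MHCIIlo gate and at 0.38 or less in the MHCIIhi gate.

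The 2 label differences are side by side in the plot of label differences, and their own difference was fitted as an interaction term. It was called higher in the MHCIIlo gate for 8 of the 10 and lower for none, beside 17.5% of all genes called higher and 16.6% lower. The excess in the MHCIIlo gate ranged from 0.73 (SE 0.131) for Saa1 to 3.60 (SE 0.616) for Reg3a on the log2 scale, and was 1.76 (SE 0.227) for Saa2 and 2.81 (SE 0.475) for Saa4. Reg3g was the member on the other side, at -0.34 (SE 0.159), and was not called, though it was in 5 alternative settings, from -0.47 to -0.36, with the replicate number as a block and with no filter on low counts among them. The 4 members with the largest excess, Reg3a, Reg2, Saa4 and Saa2, had at most 13 reads in any RFP- MHCIIlo library, as had Reg4, which was at 1.40 (SE 0.705) and was not called. Without RFP+ MHCIIlo replicate 3 the excess of Reg2 was 1.36 and no longer called, and without RFP- MHCIIlo replicate 1 that of Reg1 was 0.64 and no longer called. That of Reg2 was also no longer called without RFP- MHCIIlo replicate 3, at 3.03. That of Reg4 was called in 5 alternative settings, from 1.37 with no filter to 2.44 without RFP- MHCIIlo replicate 4.

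Within the RFP+ cells, the MHCIIlo and MHCIIhi gates compare cells that keep the mark and differ in surface MHC class II. Against RFP+ MHCIIhi cells, RFP+ MHCIIlo cells had 8 of the 10 called lower and Reg3g called higher, beside 28.1% of all genes called lower and 27.5% higher, and ranges did not overlap for 6 of the 10 and for 47.0% of all genes. The log2 differences were -0.61 (SE 0.090) for Saa1, -1.92 (SE 0.127) for Saa2, -0.86 (SE 0.098) for Saa3 and -2.06 (SE 0.243) for Saa4, so the scarcer pair of Saa genes differed more than the abundant pair. Reg4, which entered the fit through its MHCIIhi reads, was at -3.46 (SE 0.408). Reg2, which entered in the same way and is 1 of the 8, was at -1.33 (SE 0.561), with overlapping ranges, and lost its call in 13 of the alternative settings, DESeq2 among them, with a value of -0.40 without RFP+ MHCIIlo replicates 1 and 4. Without RFP+ MHCIIlo replicate 3 it was -3.41 and called. Reg3b was level between the gates at 0.09 (SE 0.174), with an interval of 2 standard errors from -0.26 to 0.43. Reg3g, at 0.29 (SE 0.112), lost its call in 11 of the alternative settings, the size factors of DESeq2 and the fit on the compared libraries alone among them, and was lowest, at 0.17, without RFP+ MHCIIlo replicate 4.

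Among RFP- cells, the MHCIIlo gate stood against the MHCIIhi gate with 9 members called lower and Reg3g called higher. Of all genes, 35.6% were called lower and 33.5% higher. Ranges did not overlap for 9 of the 10 and for 65.3% of all genes. Reg2 and Reg4, which entered the fit through their MHCIIhi reads, are in both counts, and nothing is read from their differences here. Saa4 was at -4.88 (SE 0.348) and Saa2 at -3.68 (SE 0.172), whereas Saa1 was at -1.34 (SE 0.097) and Reg3g at 0.64 (SE 0.113). This comparison and the ones above share libraries, so their values are set side by side and not compared further.

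Other genes of the acute-phase and mucosal defence programmes, from lists compiled around these families, were tested in the same fit. The lists were chosen with earlier results of these data known, and many genes named from them are those with the largest called differences. Their shares and adjusted p-values are therefore a description as well. Beside each list stand the shares over all genes tested, 28.9% higher and 22.7% lower with the mark in MHCIIlo cells and 23.8% higher and 21.2% lower in MHCIIhi cells. Of 21 tested acute-phase genes outside the Saa family, 7 (33.3%) were higher and 6 (28.6%) lower in RFP+ than in RFP- MHCIIlo cells, and 7 (33.3%) were higher and 5 (23.8%) lower in RFP+ than in RFP- MHCIIhi cells, both near those shares. In the MHCIIlo gate the genes for the haem-binding hemopexin Hpx (log2 2.53, SE 0.359), the acid glycoprotein Orm1 (2.44, SE 0.149) and haptoglobin, Hp (2.24, SE 0.186), were higher in RFP+ cells, with adjusted p = 2.5e-06, 2.9e-12 and 5.4e-10 (edgeR). Hp averaged 49.5 ± 16.1 CPM in RFP+ MHCIIlo cells and 10.5 ± 1.94 CPM in RFP- MHCIIlo cells (SD, n = 4 each). Other acute-phase genes ran the other way in that gate. The protease inhibitor Serpina3n was lower at -2.80 (SE 0.244), the metalloreductase Steap4 at -2.23 (SE 0.124) and C-reactive protein, Crp, at -2.19 (SE 0.152), with adjusted p of 1.3e-09, 5.4e-13 and 2.5e-11 (edgeR). Serum amyloid P, Apcs, had no read in any MHCIIlo library.

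In the MHCIIhi gate Orm1 was higher in RFP+ cells again (2.26, SE 0.135), as were the complement component C3 (2.04, SE 0.113) and hepcidin, Hamp (1.60, SE 0.138), and the inhibitor heavy chain Itih3 was lower (-1.20, SE 0.172), all with an adjusted p of at most 4.0e-06 (edgeR). C3 averaged 1270 ± 44.8 CPM in RFP+ MHCIIhi cells and 309 ± 22.2 CPM in RFP- MHCIIhi cells (SD, n = 4 each). In the MHCIIlo gate C3 ran the other way, at 548 ± 78.9 CPM in RFP+ cells and 1530 ± 266 CPM in RFP- cells, a log2 difference of -1.48 (SE 0.111, adjusted p = 9.0e-11, edgeR). The label differences in the 2 gates were thus opposite in sign (log2 interaction -3.52, SE 0.158, adjusted p = 5.2e-13, edgeR). Hp had a positive interaction of 1.60 (SE 0.254, adjusted p = 3.0e-05). The siderophore binder lipocalin 2, Lcn2, was higher in RFP+ cells by 0.38 (SE 0.128) in MHCIIlo cells and by 1.46 (SE 0.129) in MHCIIhi cells, with adjusted p of 0.016 and 2.2e-09 (edgeR). Its call in MHCIIlo cells was lost with only the MHCIIlo libraries in the fit, where it was 0.35.

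Of 25 other mucosal antimicrobial genes tested, 19 (76.0%) were higher and 1 (4.0%) lower in RFP+ than in RFP- MHCIIlo cells, with a list median of 1.56, against 0.07 over all genes. Lypd8, a colonic protein that keeps flagellated bacteria off the epithelium, averaged 740 ± 156 CPM in RFP+ MHCIIlo cells and 77.9 ± 12.3 CPM in RFP- MHCIIlo cells, a log2 difference of 3.25 (SE 0.146, adjusted p = 1.7e-14). S100a9, a calprotectin subunit, was higher by 2.98 (SE 0.136) and the nitric oxide synthase Nos2 by 2.73 (SE 0.212), with adjusted p of 2.0e-14 and 1.8e-10 (edgeR). The protease inhibitor Slpi was the gene called lower, at -1.37 (SE 0.313, adjusted p = 7.8e-04).

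The MHCIIhi gate had 16 (64.0%) of these 25 higher and 3 (12.0%) lower in RFP+ cells, with a median of 1.01, against -0.02 over all genes. Pigr, which carries immunoglobulin A across epithelium, was higher by 3.38 (SE 0.107), Lypd8 by 2.71 (SE 0.142) and the defensin Defb1 by 2.40 (SE 0.189). S100a9 was lower by the label in this gate, at -0.70 (SE 0.104, adjusted p = 6.0e-06), and its interaction was 3.68 (SE 0.172, adjusted p = 8.2e-13, edgeR). Retnlb, a resistin-family gene of goblet cells, was lower at -0.79 (SE 0.187). Neutrophil markers, of which S100a9 and S100a8 are also members, summed to 73.9 to 149 CPM in RFP+ MHCIIlo, 16.1 to 24.8 in RFP- MHCIIlo, 232 to 300 in RFP+ MHCIIhi and 381 to 461 in RFP- MHCIIhi libraries. S100a9 and S100a8 made up most of each sum, which therefore largely repeats the S100a9 values. In the same order Ly6g averaged 1.35, 0.235, 24.9 and 24.5 CPM, Mpo 2.18, 1.29, 38.6 and 43.5 CPM and Cxcr2 1.60, 0.283, 1.40 and 1.62 CPM. Elane and Retnlg averaged at most 0.173 and 1.74 CPM in any population. The part of these markers in the S100a9 result was not tested.

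Among 13 tested genes for cytokines that induce these programmes, 6 (46.2%) were higher and 1 (7.69%) lower in RFP+ cells in each gate. The interleukin-36 genes led in both: Il36a was higher by 3.41 (SE 0.222) in RFP+ MHCIIlo cells and by 2.30 (SE 0.203) in RFP+ MHCIIhi cells, and Il36g by 2.90 (SE 0.192) and 1.98 (SE 0.182) in the same order, each with an adjusted p of at most 4.0e-09 (edgeR). The growth factor Csf2 was higher in RFP+ MHCIIlo cells at 2.78 (SE 0.526), on levels of 1.11 ± 0.543 CPM, against 0.155 ± 0.0323 CPM in RFP- MHCIIlo cells. Il33, an alarmin of barrier cells, was lower there at -2.37 (SE 0.205, adjusted p = 1.1e-09). Tumour necrosis factor, Tnf, averaged 46.8 ± 5.61 CPM in RFP+ MHCIIhi cells and 14.2 ± 2.70 CPM in RFP- MHCIIhi cells (log2 1.73, SE 0.151, adjusted p = 1.7e-09).

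Of 22 tested cytokine receptor genes, 7 (31.8%) were higher and 7 (31.8%) lower in RFP+ than in RFP- MHCIIlo cells, where the share called higher was near that over all genes, and 14 (63.6%) were higher and 4 (18.2%) lower in RFP+ than in RFP- MHCIIhi cells. The interleukin-22 receptor chain Il22ra1 was higher with the mark in both gates, by 2.22 (SE 0.229, adjusted p = 2.0e-08) in MHCIIlo cells and 2.16 (SE 0.265, adjusted p = 3.9e-07) in MHCIIhi cells. It averaged 13.6 ± 3.16 CPM in RFP+ MHCIIlo, 2.93 ± 0.830 in RFP- MHCIIlo, 4.14 ± 0.865 in RFP+ MHCIIhi and 0.940 ± 0.236 in RFP- MHCIIhi cells. The receptor antagonist Il1rn was higher by 1.62 (SE 0.105) in RFP+ MHCIIlo cells. Among the receptor genes called lower in that gate, the leukaemia inhibitory factor receptor Lifr was lower in RFP+ cells at -2.49 (SE 0.134), the oncostatin M receptor Osmr at -1.70 (SE 0.092) and their common chain Il6st at -1.54 (SE 0.096), each with an adjusted p of at most 4.1e-12.

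RFP- MHCIIlo cells, in which 9 of the 10 members were lowest, had the highest levels of these 3 receptor genes, with 796 ± 58.9 CPM of Lifr, 311 ± 47.5 CPM of Osmr and 534 ± 38.8 CPM of Il6st. In the MHCIIhi gate Lifr was lower in RFP+ cells again (-1.47, SE 0.132), and the Osmr interaction was -1.89 (SE 0.129, adjusted p = 1.4e-10). The interleukin-6 receptor Il6ra was at 0.15 (SE 0.119, adjusted p = 0.30) and the interleukin-1 receptor Il1r1 at 0.00 (SE 0.084, adjusted p = 0.98) in the MHCIIlo gate, and in the MHCIIhi gate they were higher in RFP+ cells by 0.38 (SE 0.125, adjusted p = 0.015) and 1.10 (SE 0.083, adjusted p = 1.7e-10). Il17ra was lower in RFP+ cells in both gates, by -0.40 (SE 0.084) and -0.62 (SE 0.079), while Il17re was higher by 1.26 (SE 0.109) in RFP+ MHCIIhi cells.

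Transcription factors and signalling genes of the pathway numbered 25 tested, of which 11 (44.0%) were higher and 7 (28.0%) lower in RFP+ than in RFP- MHCIIlo cells, and 17 (68.0%) higher and 3 (12.0%) lower in RFP+ than in RFP- MHCIIhi cells. The C/EBP factor Cebpb was higher in both gates, at 15.2 ± 4.99 CPM in RFP+ MHCIIlo cells and 4.52 ± 1.64 CPM in RFP- MHCIIlo cells (log2 1.76, SE 0.269, adjusted p = 7.7e-06), and at 13.8 ± 4.03 CPM in RFP+ MHCIIhi cells and 3.17 ± 1.07 CPM in RFP- MHCIIhi cells (log2 2.13, SE 0.266, adjusted p = 5.1e-07). The hepatocyte and gut factor Hnf4a was higher by 1.83 (SE 0.170) and Foxa2 by 1.51 (SE 0.212) in RFP+ MHCIIlo cells, and the Hnf4a interaction was 1.17 (SE 0.230, adjusted p = 3.6e-04). Lower in RFP+ MHCIIlo cells were the kinase Jak1 at -0.68 (SE 0.072) and the feedback inhibitor Socs3 at -0.60 (SE 0.108), with adjusted p of at most 6.2e-05 (edgeR).

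Stat3, the factor that carries interleukin-6 and interleukin-22 signals, differed little: it was lower at -0.19 (SE 0.069, adjusted p = 0.027) in RFP+ MHCIIlo cells and higher at 0.24 (SE 0.068, adjusted p = 0.0064) in RFP+ MHCIIhi cells. The inhibitor-of-NF-kB family gene Nfkbiz was higher by 0.25 (SE 0.075) in RFP+ MHCIIlo cells and 1.26 (SE 0.078) in RFP+ MHCIIhi cells, with an interaction of -1.005 (SE 0.108, adjusted p = 1.5e-07). Cebpd was at 0.12 (SE 0.122, adjusted p = 0.45) in the MHCIIlo gate and higher by 1.14 (SE 0.118, adjusted p = 2.7e-08) in the MHCIIhi gate, where Cebpa was higher by 1.38 (SE 0.093). With only the MHCIIlo libraries in the fit, Nfkbiz was at 0.22 and no longer called in that gate, and the call on Stat3 there was lost with no filter on low counts, at -0.19. Levels of transcripts do not show the activity of these factors, which was not measured.

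**Figure D4:**
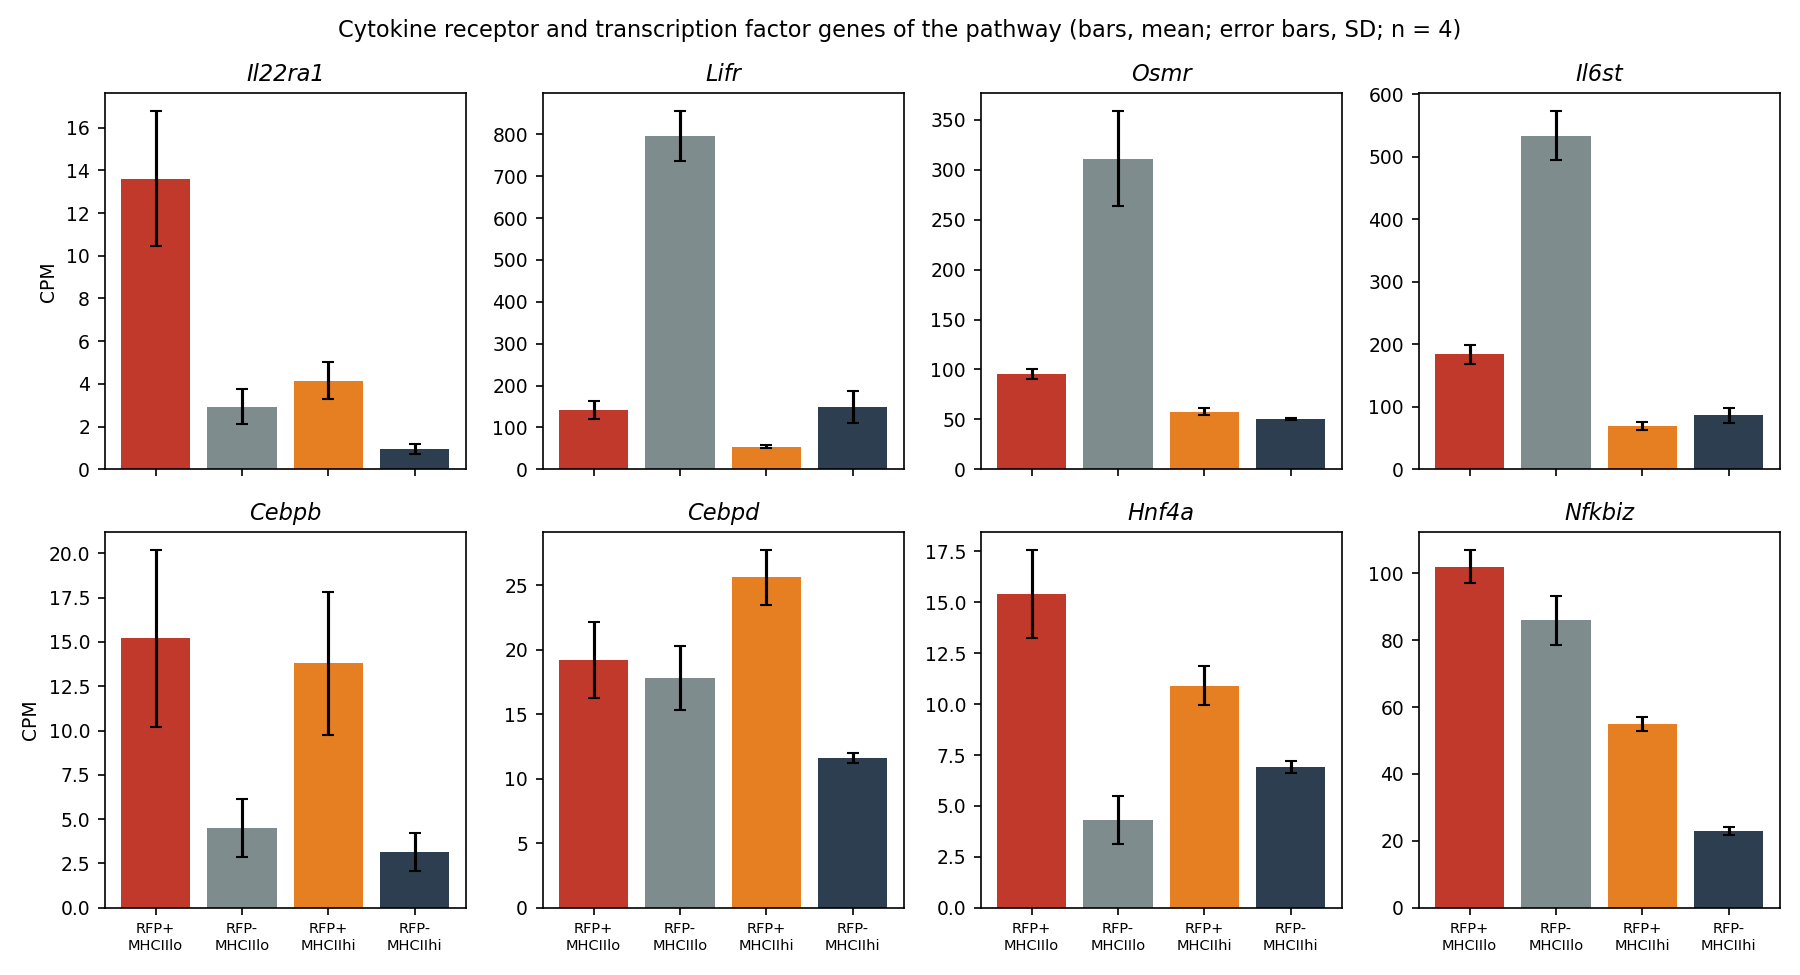
Mean CPM of 8 receptor and transcription factor genes of the pathway by population (error bars, SD over 4 libraries; each panel has its own linear axis from 0). Il22ra1 and Cebpb are higher in RFP+ cells of both gates, and Lifr, Osmr and Il6st reach their highest levels in RFP- MHCIIlo cells.

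Receptors and partners of the encoded proteins were the last list, with 4 of 13 tested genes (30.8%) higher and 5 (38.5%) lower in RFP+ than in RFP- MHCIIlo cells, and 3 (23.1%) higher and 1 (7.69%) lower in RFP+ than in RFP- MHCIIhi cells. The apolipoprotein genes Apoa2 (3.49, SE 0.506) and Apoa1 (2.56, SE 0.105), whose products share lipoprotein particles with serum amyloid A, and the retinol carrier Rbp2 (2.07, SE 0.345) were higher in RFP+ MHCIIlo cells. Apoa1 averaged 104 ± 13.0 CPM in RFP+ MHCIIlo cells and 17.5 ± 2.72 CPM in RFP- MHCIIlo cells (adjusted p = 4.2e-15). The endocytic receptor Lrp1 was lower at -1.34 (SE 0.081) and Extl3, a receptor described for REG proteins, at -0.80 (SE 0.108), both with an adjusted p of at most 1.4e-06. In the MHCIIhi gate Apoa1 was higher by 0.97 (SE 0.094) and Extl3 was at 0.14 (SE 0.109, adjusted p = 0.31). Fpr2, the chemotactic receptor for serum amyloid A, reached at most 0.710 CPM in any library.

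Within gates of equal label, the 118 tested genes of these 6 lists had 32 (27.1%) called higher and 61 (51.7%) called lower on comparing RFP+ MHCIIlo with RFP+ MHCIIhi cells, beside 27.5% and 28.1% of all genes. On comparing RFP- MHCIIlo with RFP- MHCIIhi cells 45 (38.1%) were called higher and 57 (48.3%) lower, beside 33.5% and 35.6% of all genes. In the label comparisons they had 53 (44.9%) higher and 27 (22.9%) lower in the MHCIIlo gate, beside 28.9% and 22.7% of all genes, and 62 (52.5%) higher and 17 (14.4%) lower in the MHCIIhi gate, beside 23.8% and 21.2% of all genes.

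Markers of other cells differed between the populations as well. Beside their call counts stand the shares over all genes tested. With the mark, 28.9% were called higher and 22.7% lower in MHCIIlo cells, and 23.8% higher and 21.2% lower in MHCIIhi cells. The 12 macrophage and dendritic cell markers, cells in which Saa3 is also inducible, summed to 217 to 311 CPM in RFP+ MHCIIlo libraries, 126 to 169 in RFP- MHCIIlo, 690 to 708 in RFP+ MHCIIhi and 443 to 531 in RFP- MHCIIhi libraries. Most of that sum was lysozyme, Lyz2, which averaged 137 ± 22.6 CPM in RFP+ MHCIIlo cells, 78.1 ± 16.7 in RFP- MHCIIlo cells, 526 ± 11.1 in RFP+ MHCIIhi cells and 372 ± 37.8 in RFP- MHCIIhi cells, while C1qa averaged 0.979, 1.18, 2.92 and 4.02 CPM and Adgre1 1.08, 0.673, 7.41 and 14.0 CPM in the same order. Of the 12 markers, 7 were called higher and none lower with the mark in MHCIIlo cells, and 5 were called higher and 1 lower with the mark in MHCIIhi cells, among the higher ones Cd14, at 41.3 ± 0.805 CPM in RFP+ MHCIIhi cells and 11.8 ± 0.904 CPM in RFP- MHCIIhi cells. Their part in the Saa3 levels was not tested. The 8 mesenchymal markers summed highest in RFP- MHCIIlo libraries, at 436 to 978 CPM, against 54.5 to 179 CPM in RFP+ MHCIIlo libraries. Dcn was the largest part, at 376 ± 126 CPM in RFP- MHCIIlo cells. Of the 8, 6 were called lower and none higher in RFP+ than in RFP- MHCIIlo cells. Pdgfrb was lowest in RFP- MHCIIlo cells, at 7.19 CPM. It averaged 8.03 CPM in RFP+ MHCIIlo, 28.8 in RFP+ MHCIIhi and 24.3 in RFP- MHCIIhi cells. The part of the mesenchymal markers in the high Lifr, Osmr and Il6st values was not tested. The 5 endothelial markers summed to 36.9 to 52.9 CPM in RFP+ MHCIIlo libraries, against 50.4 to 82.8 CPM in RFP- MHCIIlo libraries. Of the 5, 1 was called higher and 4 lower in RFP+ than in RFP- MHCIIlo cells. Tek, the one called higher, averaged 36.4 CPM in RFP+ and 20.4 CPM in RFP- MHCIIlo cells. In the same order Cdh5 averaged 0.729 and 13.8 CPM, Kdr 0.818 and 15.2 CPM, Pecam1 3.35 and 11.7 CPM and Emcn 0.425 and 2.77 CPM. In the MHCIIhi gate the 5 cortical epithelial markers summed to 595 to 878 CPM in RFP+ libraries, against 1430 to 2380 CPM in RFP- libraries, and the 9 thymocyte markers to 73.3 to 124 CPM in RFP+ libraries, against 277 to 617 CPM in RFP- libraries. All 5 cortical and all 9 thymocyte markers were called lower in RFP+ MHCIIhi cells (edgeR), while in RFP+ MHCIIlo cells 1 cortical marker was called higher and 4 lower, and 5 thymocyte markers higher and none lower. Their part in the label differences of the members was not tested.

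Gut and liver markers were higher in RFP+ than in RFP- cells of the same gate in summed level. The 9 Paneth and goblet cell markers summed to 754 to 963 CPM in RFP+ MHCIIlo, 214 to 289 in RFP- MHCIIlo, 803 to 900 in RFP+ MHCIIhi and 259 to 325 in RFP- MHCIIhi libraries. The 10 enterocyte markers summed to 353 to 451, 146 to 175, 496 to 564 and 304 to 327 CPM in the same order, and the 6 hepatocyte markers to 179 to 228, 20.7 to 27.4, 255 to 299 and 102 to 106 CPM. Albumin, Alb, was at 0.653 ± 0.764 CPM in RFP+ MHCIIlo cells and 0.170 ± 0.184 CPM in RFP- MHCIIlo cells, and at 13.9 ± 1.33 CPM in RFP+ MHCIIhi cells and 13.5 ± 1.84 CPM in RFP- MHCIIhi cells (SD, n = 4 each). Of all genes tested, 28.9% were called higher and 22.7% lower with the mark in MHCIIlo cells, and 23.8% and 21.2% in MHCIIhi cells. Of the 5 hepatocyte markers tested, 5 were called higher and none lower in RFP+ than in RFP- MHCIIlo cells. In the MHCIIhi gate 3 of them were called higher and none lower in RFP+ cells, and Alb was not called. The part of these markers in the members' levels was not tested. The gut transcription factor Cdx2 stayed between 0.430 and 3.22 CPM in all libraries. Cdx1 averaged 158 CPM in RFP+ and 189 CPM in RFP- MHCIIhi cells. Of the 10 enterocyte markers, 7 were called higher with the mark in MHCIIlo cells and 6 in MHCIIhi cells. Of the 9 Paneth and goblet cell markers, 9 and 6 were, beside 28.9% and 23.8% of all genes. None was called lower, though Cdx1, Cdx2, Alpi, Lct and Muc2 had lower means with the mark in MHCIIhi cells. Lyz1 was the largest part of the Paneth and goblet cell sum. The epithelial gene Epcam, used in the sort, averaged between 343 and 594 CPM in the 4 populations.

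The genes most like Reg3g, Saa3 and Saa1 across the 16 libraries were found by the root mean square difference of centred log2 CPM among 13013 genes that averaged 5 CPM or more in some population. Closest to Reg3g were Wfdc17 (0.195), Tmc5 (0.199), Gpr55 (0.234), Muc3 (0.235) and Celf3 (0.236). Reg3b, its neighbour in the chromosome 6 cluster, was farther away, at 0.707. Saa3 was closest to transthyretin, Ttr (0.278), and then to Tm4sf20 (0.453), Ces2a (0.471), Wfdc21 (0.497) and Prap1 (0.525), with Saa1 at 0.458. Saa1 was closest to Prap1 (0.213), Cyp3a13 (0.255), Tm4sf20 (0.297), Prss30 (0.320) and Ear1 (0.353), and lay at 0.401 from Reg3b and at 1.02 from its copy Saa2. Ttr, for example, averaged 87.2 ± 18.4 CPM in RFP+ MHCIIlo, 3.91 ± 0.935 in RFP- MHCIIlo, 123 ± 12.6 in RFP+ MHCIIhi and 16.7 ± 2.33 in RFP- MHCIIhi cells. The measure is a description over libraries that share their populations.

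**Figure D5:**
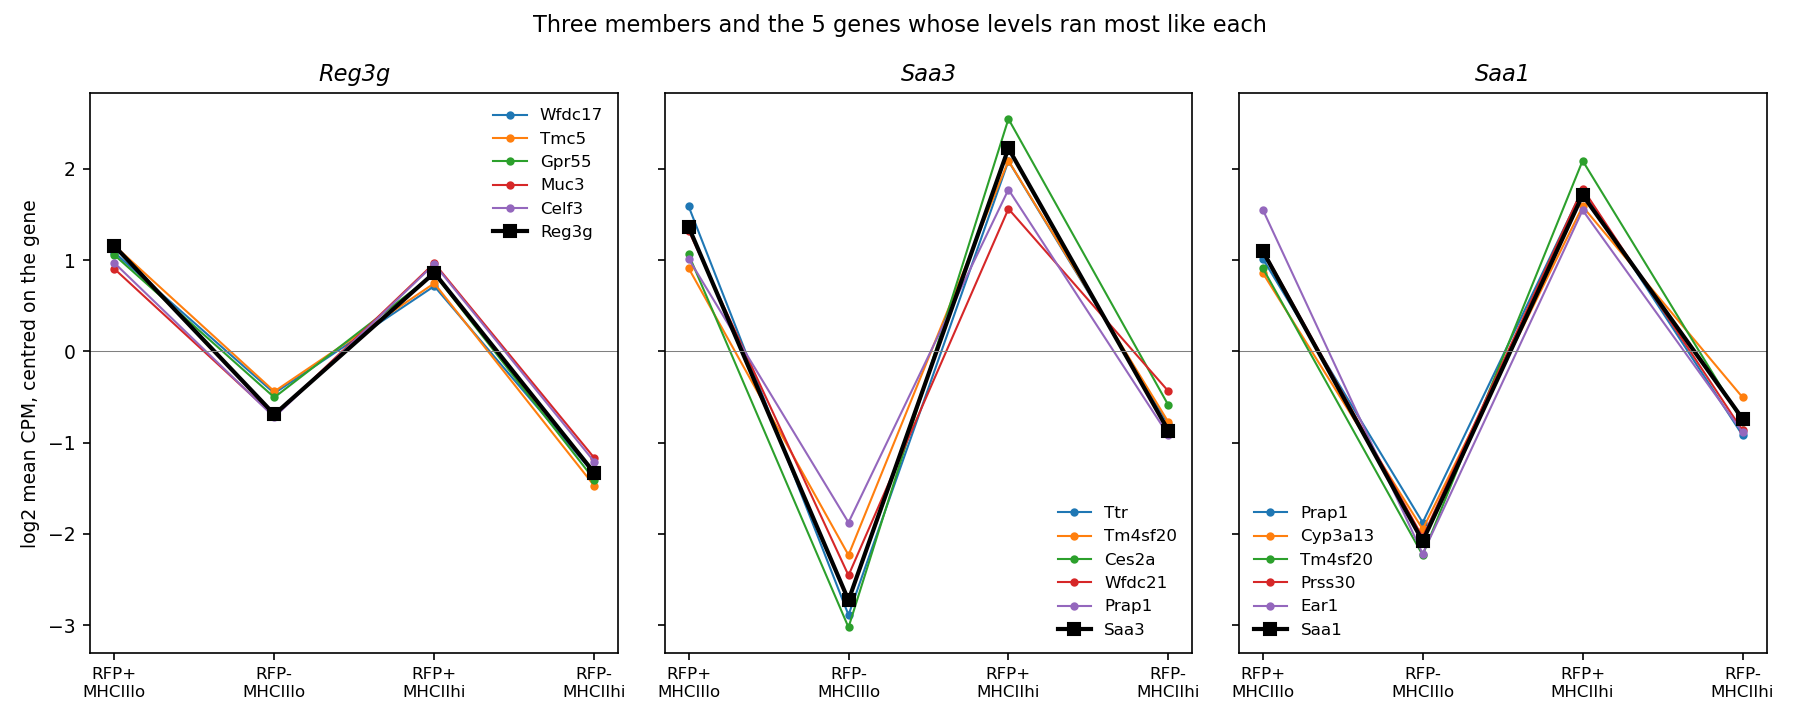
Mean log2 CPM by population, centred on each gene, of Reg3g, Saa3 and Saa1 (black) and of the 5 genes closest to each over 16 libraries. The Reg3g set is lowest in RFP- MHCIIhi cells, and the Saa3 and Saa1 sets are lowest in RFP- MHCIIlo cells.

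Replicates also differed in common. RFP+ MHCIIlo replicate 4 had the highest value of its population for 6 of the 10 genes and replicate 1 the lowest for 6, and in RFP- MHCIIlo cells replicate 4 was likewise highest for 6 and replicate 1 lowest for 6. Libraries of RFP+ MHCIIlo cells resembled each other less than those of the other populations, with mean correlations of log2 CPM to their own population of 0.952 to 0.963, against 0.976 to 0.989 elsewhere, as a description over genes. Without RFP+ MHCIIlo replicates 1 and 4, the log2 difference of Reg4 between RFP+ and RFP- MHCIIlo cells was 1.68 in place of 0.69, and was called.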

How the data were processed

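Per the labels' protocols, RNA of sorted thymic cells went through NuGen Ovation amplification and a Nextera XT library kit. Such libraries mark no strand, and no molecular identifiers are mentioned. The authors deposited raw read counts per Ensembl gene for each of 16 libraries. STAR, DESeq2 and the build GRCm38 are named in the submitters' processing notes, without versions, and how reads matching several genes were counted is not given in the sources used here. Symbols came from GENCODE M21 and matched 42548 of 43432 IDs. The 884 others held 0.1% of reads.

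Counts were tested with edgeR 4.0.16 in R 4.3.3 (quasi-likelihood test, TMM scaling, genes kept by its filter with a minimum count of 10, all 16 libraries in 1 fit) and p-values were adjusted over 19617 genes by the Benjamini-Hochberg method, with a call at 0.05. The label difference in MHCIIlo minus that in MHCIIhi cells was fitted as an interaction. CPM used TMM library sizes. Standard errors are the log2 difference over the square root of its F value. Levels per kb used the main coding transcript of GENCODE M21. Promoter windows came from RefSeq, where all 10 genes matched. The fit was tested on simulated counts first.

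The members and the gene lists were chosen with earlier results of these data known. From each list, up to 3 genes per direction with the largest called difference and a mean of at least 1 CPM were named, and 16 genes with a direct known role. Some genes that this rule names are not reported here. DESeq2 1.42.0, its size factors, no filter, the replicate number as a block, leaving out libraries, and fits on the compared libraries only were alternatives. No 2 libraries matched within sampling noise (chi-square per degree of freedom of 3.18 or more). Read counts cover counting error only.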

Additional observations from a re-analysis of the deposited data

Results flagged for a closer look

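In 4 of 40 sets of 4 libraries checked, 1 library stood far from the other 3, where chance gives about 1 set in 20. Saa1 reached 329 CPM in RFP+ MHCIIlo replicate 4. Saa4 was lowest in RFP- MHCIIhi replicate 4, at 7.24 CPM. Reg2 reached 5.71 CPM in RFP+ MHCIIlo replicate 3, and Reg4 reached 1.12 CPM in RFP- MHCIIlo replicate 4.

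For 8 genes the difference between RFP+ and RFP- cells itself differed between the gates, by the interaction term of the edgeR fit. Of all genes tested, 17.5% were called higher and 16.6% lower by that term. The members were chosen with these values known, so the count is a description. On the log2 scale the difference in the MHCIIlo gate exceeded that in the MHCIIhi gate by 0.728 for Saa1, 1.764 for Saa2, 0.995 for Saa3 and 2.814 for Saa4. Among the Reg genes the excess was 0.863 for Reg1, 3.45 for Reg2, 3.596 for Reg3a and 0.861 for Reg3b. Saa2, Saa4, Reg2 and Reg3a had at most 13 reads in any RFP- MHCIIlo library. Without RFP+ MHCIIlo replicate 3 the excess of Reg2 was 1.363 and no longer called.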

How the results depend on the processing

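Counts of called genes stayed within 1.5 times their value under every alternative run. Leaving out 1 library at a time gave 8 to 9 of the 10 genes called for RFP+ against RFP- MHCIIlo cells, 7 to 9 for RFP+ MHCIIlo against RFP+ MHCIIhi, 6 to 7 for RFP+ against RFP- MHCIIhi, 10 for RFP- MHCIIlo against RFP- MHCIIhi and 7 to 10 for the interaction. Over all genes tested, the share called in those runs was 47.2% to 51.3%, 51.0% to 56.2%, 39.3% to 48.1%, 65.5% to 70.9% and 30.2% to 35.3% in the same order. The calls on the other listed genes ranged over 76 to 86, 90 to 99, 72 to 81, 99 to 105 and 65 to 74 in that order. The order of the 4 populations was kept for 8 to 10 genes. It changed for Reg1 under the size factors of DESeq2, under plain library totals and without RFP+ MHCIIlo replicate 4 or RFP- MHCIIhi replicate 1, for Reg3b without RFP+ MHCIIlo replicate 4, and for Reg2 without RFP- MHCIIhi replicate 1. The cause was not tested.

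Il1r1 in the MHCIIlo gate, at 0.002, turned to -0.009 with the size factors of DESeq2, -0.01 with DESeq2, -0.003 with no filter and -0.029 with only the compared libraries, and ranged from -0.093 to 0.053 on leaving out 1 library. Il6ra there ranged from -0.027 to 0.239 on leaving out 1 library. The interaction of Lypd8, 0.54 with an adjusted p of 0.031 (edgeR), was no longer called in 9 alternatives.

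Same-numbered libraries of different populations correlated by -0.019 to 0.129 (median 0.057) in their deviations from the population means. Of 24 such pairs, 4 were over 0.1. Differently numbered libraries of different populations correlated by -0.121 to 0.079 (median -0.017), and 14 of 16 libraries correlated best with their own number. Libraries of the same number thus tended, weakly, to deviate together. The labels do not say what a number marks, so the main fit had no block and the block was run as an alternative. With the replicate number as a block, 9, 9, 7, 10 and 9 of the 10 genes were called in the order above, Reg3g joining the interaction at -0.36. Of the other listed genes, 82, 95, 79, 103 and 71 were called. Over all genes tested the shares called were 52.1%, 56.4%, 45.9%, 69.6% and 35.3%. Reg2, Reg3a, Reg4 and Saa4 rest on 0 to 13 reads per RFP- MHCIIlo library, which limits their values there.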
